A study of Mus musculus with 6 samples.

Results

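The cytosolic ribosomal proteins are the proteins that, with the ribosomal RNAs, build the large (60S) and small (40S) subunits of the ribosome outside mitochondria. Their genes were taken by gene symbol, as every Rpl and Rps gene with a number, Rplp0 to Rplp2 and Rpsa, from the array's annotation. This gave 63 genes of 19494 measured, each with 1 row of its own: 33 core genes of the large subunit, 22 core genes of the small subunit and 8 paralogues whose symbols end in "l" or "l1" (Rpl3l, Rpl7l1, Rpl10l, Rpl22l1, Rpl32l, Rpl39l, Rps4l and Rps27l). No filter on low values was set, so all 63 were tested. A further 22 protein-coding genes of the reference whose symbols fit the rule, among them Rpl10, Rplp2 and Rps27, were not analysed here. The RNA came from regulatory T cells (Tregs), CD4 T cells that restrain immune responses, sorted from the lamina propria of tumour-bearing colons. The mice were of the genotype Foxp3-RFP x GPR15-GFP, with a red reporter for Foxp3 and a green one for GPR15, and all had colorectal cancer induced with azoxymethane (AOM), a carcinogen, and dextran sulfate sodium (DSS), which injures the colon. Red CD4-stained cells were parted by green fluorescence into a GPR15-GFP+ and a GPR15-GFP- fraction, with 3 arrays for each, and the titles number the arrays of both fractions 1, 5 and 6. Ages, times after treatment and the number of mice behind an array are not given in the sources used here.

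Ribosomal protein genes are transcribed in nearly every cell, and their products are made in nearly equal numbers because each ribosome holds a single copy of most of them. Their messages begin with a run of pyrimidines, the TOP motif, through which the kinase mTORC1 and the binding protein Larp1 adjust their translation as a group. T cells enlarge their ribosome supply on activation, and mTORC1 activity also bears on the function of Tregs. Core proteins are needed by all cells, whereas several paralogues are known from single tissues: Rpl3l from heart and skeletal muscle, Rpl10l and Rpl39l from the male germ line. These genes also have many processed pseudogenes, and whether the probes of a row tell a gene from its copies was not checked here.

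To show the shared start of these messages, windows of 30 bases around annotated starts (10 before, 20 after) were taken from RefSeq's promoter table, build GRCm38.p6, for genes on which the results turn. Capitals mark a pyrimidine run, searched on the gene's own strand as a C within 5 bases of the start followed by at least 4 further bases that are all C or T.
Rpl35a: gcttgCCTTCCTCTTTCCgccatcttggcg
Rpl15: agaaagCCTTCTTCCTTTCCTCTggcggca
Rpl22: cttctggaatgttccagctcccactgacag
Rps6: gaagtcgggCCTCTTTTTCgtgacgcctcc
Rps10: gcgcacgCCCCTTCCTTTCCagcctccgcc
Rps15a: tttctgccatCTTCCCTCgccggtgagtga
Rpl22l1: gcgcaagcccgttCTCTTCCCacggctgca
Rpl32l: aaatgaccagCTTCTTCCTTggtgctgcct
Rps27l: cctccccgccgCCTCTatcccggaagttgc
Rpl10l: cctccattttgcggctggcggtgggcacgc
Rpl3l: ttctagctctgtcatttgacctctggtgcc
Rpl39l: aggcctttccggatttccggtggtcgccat
The first 6 are core genes of both subunits, 5 of them picked because a start shows the run, and Rpl22 with none at either of its 2 starts. The other 6 are paralogues, of which Rpl10l, Rpl3l and Rpl39l show no run. The windows lie at chr16:33056472-33056501 for Rpl35a (the only one of 3 annotated starts with a run), chr14:18270967-18270996 for Rpl15 (minus strand), chr4:152324426-152324455 for Rpl22 (1 of 2 starts), chr4:86857348-86857377 for Rps6 (minus strand), chr17:27635225-27635254 for Rps10 (minus strand) and chr7:118116128-118116157 for Rps15a (minus strand). Those of the paralogues lie at chr3:28805498-28805527 for Rpl22l1, chr10:20208429-20208458 for Rpl32l, chr9:66946076-66946105 for Rps27l (1 of 2 starts), chr12:66284382-66284411 for Rpl10l (minus strand), chr17:24727816-24727845 for Rpl3l (1 of 2 starts) and chr16:10170218-10170247 for Rpl39l. The table held a start for 50 of the 63 genes. At least 1 start with such a run was found for 10 of 24 core genes of the large subunit, 9 of 19 of the small subunit and 3 of 7 paralogues, against 19.7% of all 27025 genes in the table, so 24 of 43 core genes had none. The letters CCGGAAG, a motif recognised by ETS factors, were searched on either strand of the 300 bases around a start. They stood in 19 of 43 core genes and 2 of 7 paralogues, against 9.93% of all genes. Core genes with and without the run had like median differences between the fractions, 0.06 and 0.06 log2 units over 19 and 24 genes, and so had those with and without CCGGAAG, at 0.05 and 0.06. A match is a matter of letters in a window, and annotated starts can lie off the true ones.

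The arrays gave log2 signals summarised per probe set, with array medians of 6.49 to 6.64. Precision is limited by having 3 arrays in a fraction. In both fractions the array numbered 1 spread its signals least, with SDs of 1.63 and 1.63 against 1.74 to 1.87 on the other 4. The T cell markers Cd3e (10.90 to 11.34 log2 units) and Cd4 (8.73 to 9.74) and the Treg markers Ctla4 (10.45 to 11.73) and Icos (11.82 to 12.10) were bright on every array. Il2ra, which encodes the Treg marker CD25, read only 4.64 to 5.42 log2 units, below every array's median, and Foxp3 was not analysed here. Gpr15 itself read 8.51, 9.12 and 8.70 log2 units on the GPR15- arrays numbered 1, 5 and 6 and 8.23, 7.86 and 8.28 on the GPR15+ arrays. Its direction thus went against the labels, with no overlap between fractions, so every direction below rests on the labels alone. In bulk samples, fewer cells of a type and less RNA per cell cannot be told apart.

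The comparison asked how GPR15+ and GPR15- Tregs of the tumour-bearing colon differ, here in their ribosomal protein messages. No ribosomal protein gene passed: with limma and Benjamini-Hochberg adjustment over all genes, 0 of 63 were called at 0.05, as were 0 of all 19494 genes (0%). At an unadjusted p under 0.05 limma again gave 0 of 63 members in either direction, where 2.79% of all genes lay higher and 3.44% lower in samples labelled GPR15+. The smallest adjusted p among members was 0.773 from limma, that of Rpl35a and Rpl29. With the title number as a block, the smallest was 0.416, and 0 of 63 had an unadjusted p under 0.05, against 6.14% of all genes higher and 6.23% lower. The differences of core genes were small, from -0.11 (Rpl22) to 0.41 (Rpl35a) log2 units. Their 95% intervals reached a median of 0.45 log2 units to either side, so changes below about that size could not be told from 0. The upper bound lay below 1 log2 unit, a doubling, for 54 of 55 core genes and the lower bound above -1 for 53 of 55. A p above the threshold does not show that the fractions had equal levels.

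By subunit, the 33 large-subunit genes had a median difference of 0.02 log2 units (19 above 0, 14 below) and the 22 small-subunit genes one of 0.08 (20 above 0, 2 below). The 8 paralogues lay on both sides, 4 above and 4 below 0, with a median of -0.04. For comparison, the median over all genes was -0.06 log2 units, with 40.8% of them above 0. The members' signals stood near the top of each array, where 39 of the 55 core genes belonged to the 1% of rows with the highest mean signal, which describes the probes' signal and not an order of expression. The 661 other genes with a mean signal of 10 log2 units or more had a median difference of 0.05 log2 units, with 380 above 0. With each array centred on its own median, 27 of 33 large-subunit and 22 of 22 small-subunit genes lay above 0, with medians of 0.09 and 0.15, and under quantile normalization 19 and 18 did. When a smooth trend of each array's deviation on mean signal was removed, the median became -0.01 for the large subunit and 0.05 for the small, with 14 of 33 and 18 of 22 above 0, and -0.00 for all genes. Above 0 then lay 9703 of all 19494 genes and 311 of the 661 other bright genes. The small subunit's larger share above 0 was not tested against the large subunit's. Medians and counts rest on single arrays. Without the GPR15+ array numbered 1 the medians were 0.25 and 0.25 in the large and small subunit, with 30 of 33 and 21 of 22 above 0. Without the GPR15+ array numbered 6 they were -0.06 and 0.00, with 8 of 33 and 12 of 22 above 0.

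Values of the members varied with the title number. Differences of opposite sign cancel in a mean over numbers in any genes, so the mean's smaller size is no trait of the members. Relative to each gene's own mean over the 6 arrays, the median core gene stood at -0.06, -0.01 and 0.02 log2 units on the GPR15- arrays numbered 1, 5 and 6. On the GPR15+ arrays it stood at -0.27, 0.16 and 0.27. By these medians the GPR15- arrays lay close together, between the GPR15+ array numbered 1 below them and the GPR15+ arrays numbered 5 and 6 above. Single genes lay further apart. The interquartile range over core genes was -0.26 to 0.01 on the GPR15- array numbered 1, -0.08 to 0.08 on number 5 and -0.07 to 0.10 on number 6. In the large subunit the median on the GPR15- array numbered 1 was -0.11. The GPR15+ array numbered 1 gave the lowest of the 6 values for 33 of 55 core genes, where that array was lowest for 18.8% of all genes and for 48.4% of the 661 other bright genes. The GPR15+ array numbered 6 gave the highest value for 46 of 55, where it was highest for 11.7% of all genes and 27.7% of the other bright genes. The spread between arrays was larger in the GPR15+ than in the GPR15- fraction for 47 of 55 core genes. The same held for 66.1% of all genes and 70.5% of the other bright genes. Large and small subunit went together in this respect, with medians of -0.31 and -0.16 on the GPR15+ array numbered 1 and of 0.28 and 0.22 on the GPR15+ array numbered 6.

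**Figure D1:**
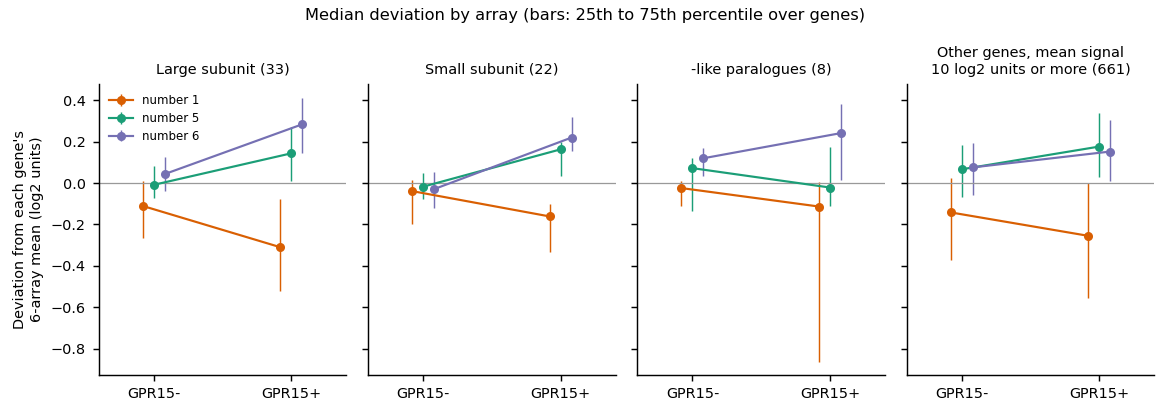
Median deviation of each gene group from its genes' own 6-array means (log2 units, y axis) in both fractions (x axis), coloured by title number, with bars for the interquartile range over genes. The GPR15+ point of number 1 lies below and those of numbers 5 and 6 above the GPR15- points in both subunits (-0.31, 0.14 and 0.28 in the large one), and the other bright genes show -0.26, 0.18 and 0.15.

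Within number 1, the samples labelled GPR15+ read lower for 43 of 55 core genes, with a median difference of -0.17 log2 units in the large and -0.11 in the small subunit. Above 0 lay 12 of the 55, where 46.9% of all genes and 41.3% of the other bright genes did. Within number 5 the medians were 0.11 and 0.12, and 49 of 55 lay above 0, against 41.9% of all genes and 70.7% of the other bright genes. Within number 6 they were 0.22 and 0.27, and 55 of 55 lay above 0, against 42.6% of all genes and 66.0% of the other bright genes. The full pattern of below 0 in number 1 and above 0 in numbers 5 and 6 was shared by 39 of 55 core genes, 22 of the large and 17 of the small subunit, compared with 13.5% of all genes and 31.2% of the other bright genes. With 1 array of each fraction per number, the difference between numbers has no replicate check and was not tested. Bright genes as a whole leaned the same way: the 661 others had medians of -0.09, 0.13 and 0.09 in numbers 1, 5 and 6. With the signal trend removed, the medians of the core genes were -0.01, -0.02 and 0.12, and 48 of 55 still lay above 0 in number 6. There 9875 of all 19494 genes and 288 of the 661 other bright genes did. In number 5, 23 of 55 then lay above 0, against 9725 of all genes and 291 of the other bright genes. In number 1, 25 of 55 did, against 9684 and 336.

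**Figure D2:**
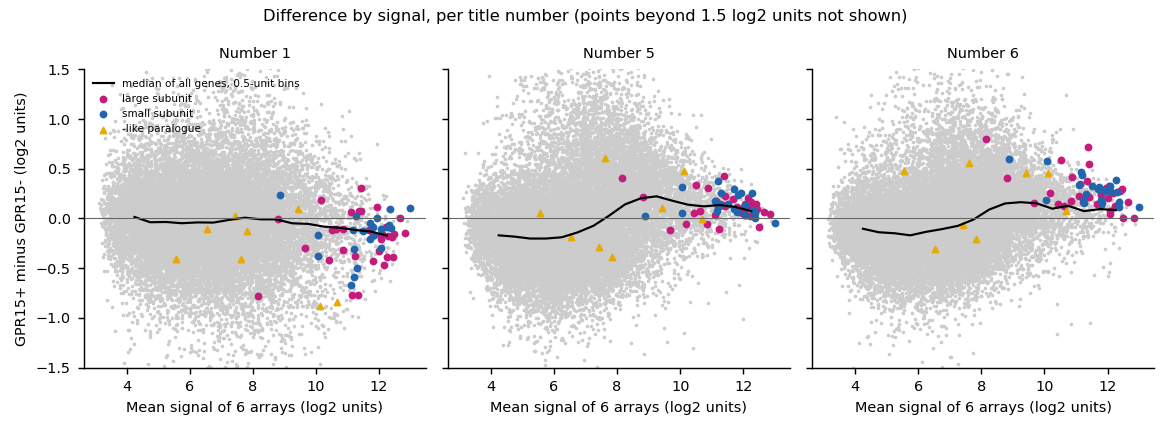
Difference between the fractions (labelled GPR15+ minus GPR15-, log2 units, y axis) against mean signal over the 6 arrays (log2 units, x axis), 1 panel per title number, with all genes in grey, the median of all genes per bin of signal as a line, and members in colour. Most members stand at the bright end, mainly below 0 in number 1 and above 0 in numbers 5 and 6, where the line of all genes also lies on the same side.

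Among large-subunit genes, Rpl35a had the largest difference. Its product lies at the surface of the large subunit, and human mutations of the gene cause Diamond-Blackfan anaemia. Rpl35a read 11.26, 11.15 and 11.11 log2 units on the GPR15- arrays numbered 1, 5 and 6, and 11.33, 11.58 and 11.83 on the GPR15+ arrays. All GPR15+ arrays were higher and the fractions did not overlap, although number 1 was nearly level. The difference was 0.41 ± 0.18 log2 units (SE, n = 3 per fraction; 95% interval -0.02 to 0.83; 1.32-fold; limma adjusted p = 0.773). Rpl29, a small basic protein also known to bind heparin, read 11.39, 11.35 and 11.05 in GPR15- and 11.69, 11.47 and 11.60 in GPR15+ samples. Again the fractions did not overlap, and the difference was 0.32 ± 0.17 log2 units (SE, n = 3 per fraction; limma adjusted p = 0.773). Only 1 other core gene was free of overlap, Rpl37a, at 12.61 ± 0.02 against 12.69 ± 0.07 log2 units (SD, n = 3 each). These 3 of 55 compare with 4.12% of all genes and 6.51% of the other bright genes. No core gene was free of overlap on the lower side, where 9.17% of all genes and 4.54% of the other bright genes were. The share on the higher side is close to that of all genes.

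The P stalk recruits the factors that drive elongation, and Rplp0 is its base. Rplp0 read 8.34, 8.89 and 8.89 in GPR15- and 8.34, 9.11 and 9.30 in GPR15+ samples, level in number 1 and higher in numbers 5 and 6 (mean difference 0.21 ± 0.29 SE). Rplp1, which hangs on that base, differed by -0.39, 0.09 and 0.29 in numbers 1, 5 and 6. Rpl5 and Rpl11 form a particle with 5S RNA that can bind Mdm2 and so stabilise p53. Rpl5 differed by -0.43, 0.08 and 0.24 and Rpl11 by -0.41, 0.05 and 0.15, so both members of that particle followed the common pattern. Of the proteins that line the exit tunnel, Rpl4 differed by -0.32, 0.11 and 0.20, Rpl17 by 0.06, 0.03 and 0.23, and Rpl39 by -0.78, 0.41 and 0.80. Rpl39 had the widest swing of any core gene: its GPR15- arrays read 8.29, 8.02 and 7.95, while its GPR15+ arrays read 7.51, 8.42 and 8.74. The GPR15+ values of Rpl39 thus enclosed all GPR15- values.

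Rpl9 and Rpl23 stood as low as Rpl39 in number 1, at -0.77 and -0.77 log2 units, against 0.14 and 0.17 in number 5 and 0.38 and 0.35 in number 6. Rpl21 read 10.28, 10.40 and 10.44 in GPR15- and 10.17, 10.73 and 11.03 in GPR15+ samples, a mean difference of 0.27 ± 0.24 (SE). Rpl15 differed little but in 1 direction, by 0.08, 0.23 and 0.22, although its GPR15- arrays alone ran from 10.84 to 11.62, the array numbered 1 being the low one. In all, 6 large-subunit genes lay above 0 in all 3 numbers (Rpl35a, Rpl29, Rpl15, Rpl8, Rpl17 and Rpl37a), or 6 of 33, compared with 13.4% of all genes and 23.4% of the other bright genes. Below 0 in all 3 numbers lay 0 of 33, compared with 23.6% of all genes and 12.7% of the other bright genes. Rpl38, known for its part in the translation of Hox messages, differed by -0.15, -0.08 and 0.00 and had the smallest positive value in number 6. Rpl36 (-0.29, -0.12 and 0.15), Rpl36a (-0.10, -0.06 and 0.17) and Rpl22 were likewise below 0 in numbers 1 and 5 and above 0 in number 6.

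Among small-subunit genes, Rps19 had the largest difference. Rps19, the gene most often mutated in Diamond-Blackfan anaemia, read 8.53, 9.004 and 8.66 log2 units in GPR15- and 8.76, 9.03 and 9.26 in GPR15+ samples. Each number was higher, by 0.24, 0.03 and 0.60, but the fractions overlapped (mean difference 0.29 ± 0.21 SE, n = 3 per fraction; limma adjusted p = 0.797). Rps6, the protein phosphorylated by S6 kinase when mTORC1 is active, read 11.66, 11.62 and 11.59 in GPR15- and 11.62, 11.92 and 11.90 in GPR15+ samples. It was level in number 1 and higher by 0.30 and 0.31 in numbers 5 and 6, with a mean difference of 0.19 ± 0.16 (SE). Rps16 (-0.09, 0.26 and 0.38) and Rps10 (-0.17, 0.06 and 0.58) ran the same way, and Rps15 lay at 0.01, 0.25 and 0.27. The genes above 0 in all 3 numbers were Rps19, Rps15, Rps28 and Rps14, or 4 of 22, against 13.4% of all genes and 23.4% of the other bright genes. None of the 22 was free of overlap between fractions, where 4.12% of all genes were on the higher and 9.17% on the lower side. Of the other bright genes, 6.51% and 4.54% were.

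Rps9 and Rps4x, both early-binding proteins of the small subunit's body, showed the widest swings of that subunit. Rps9 read 10.70, 11.35 and 11.32 in GPR15- and 10.03, 11.53 and 11.66 in GPR15+ samples. Here the arrays numbered 1 were the lowest in both fractions, and the mean difference was -0.06 ± 0.43 (SE). Rps4x, encoded on the X chromosome, differed by -0.58, 0.38 and 0.43 log2 units. Rps15a (-0.50, 0.26 and 0.25), Rps21 (-0.31, 0.11 and 0.18) and Rps29 (-0.30, 0.13 and 0.27) gave mean differences of 0.00, -0.00 and 0.04 in which opposite values cancelled. Rps18 differed by -0.09, 0.01 and 0.16. Rpsa, which also serves as a laminin receptor at the cell surface, differed from the common pattern, at 0.10, -0.05 and 0.11. Rpsa was also among the brightest rows of every array (12.86 to 13.12 log2 units).

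**Figure D3:**
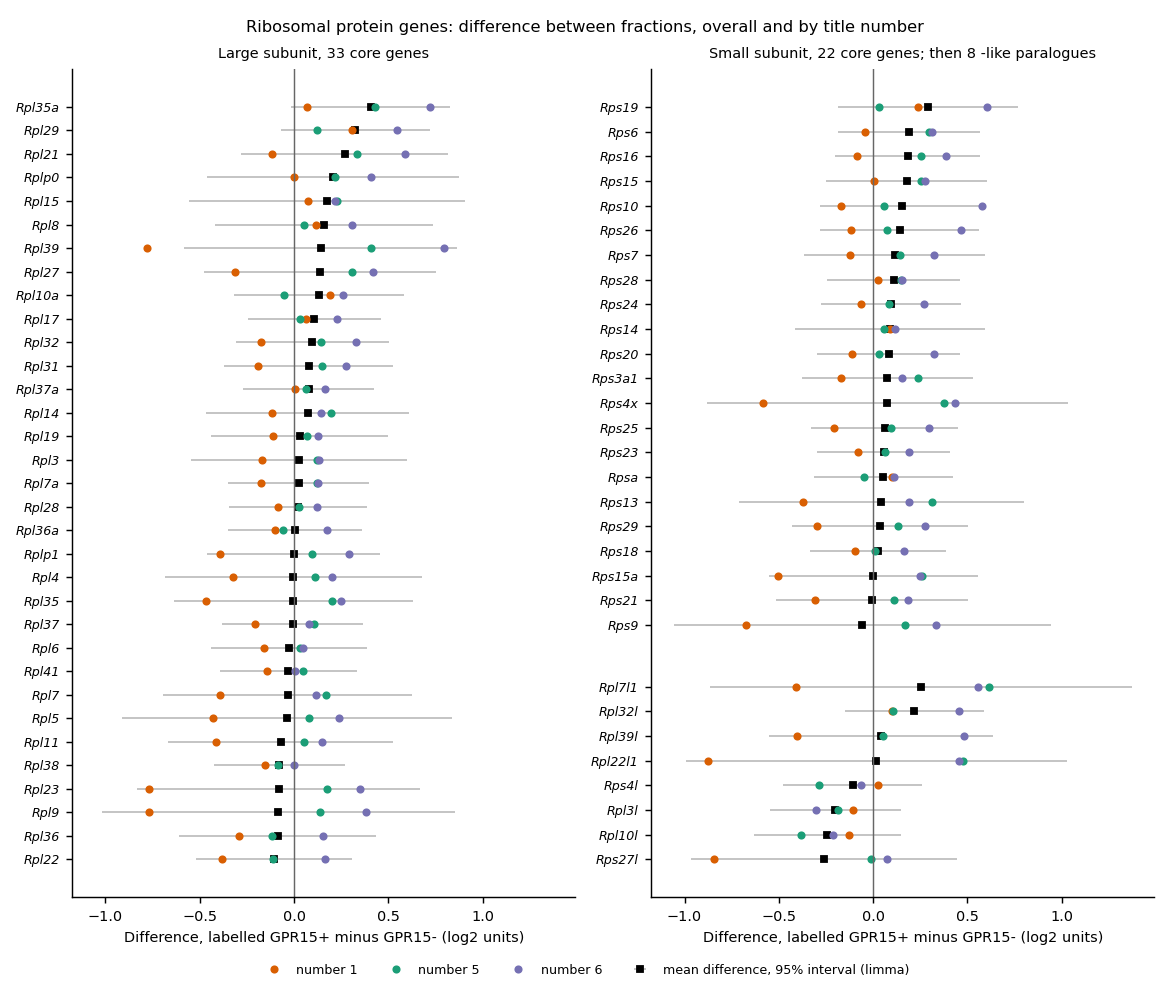
Difference of each of the 63 genes (labelled GPR15+ minus GPR15-, log2 units, x axis): coloured points are the title numbers 1, 5 and 6, black squares the mean and grey lines its 95% interval from limma. The interval of every gene includes 0, and number 1 lies to the left of numbers 5 and 6 for most core genes.

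Of the 8 paralogues, 3 (Rpl7l1, Rpl22l1 and Rpl39l) lay below 0 in number 1 and above 0 in numbers 5 and 6, as most core genes did, compared with 13.5% of all genes, and paralogues were not tested against core genes. Rpl22l1 and its partner Rpl22 are related RNA-binding proteins of the large subunit, and Rpl22 is needed for the development of αβ T cells and holds Rpl22l1 down in other settings. Rpl22 read 11.38, 11.19 and 11.26 in GPR15- and 10.998, 11.08 and 11.43 in GPR15+ samples, or -0.38, -0.11 and 0.17 by number. Rpl22l1 read 9.88, 10.17 and 10.26 in GPR15- and 9.003, 10.65 and 10.72 in GPR15+ samples, or -0.88, 0.47 and 0.46 by number. Both were lowest in number 1 by difference, and only in number 5 did their signs part. The mean differences were -0.11 ± 0.18 (SE) for Rpl22 and 0.02 ± 0.44 (SE) for Rpl22l1.

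Rps27l, a target of p53, was the member with the lowest mean difference, at -0.26 ± 0.30 log2 units (SE, n = 3 per fraction; limma adjusted p = 0.873). It read 10.67, 10.85 and 10.91 in GPR15- and 9.82, 10.84 and 10.98 in GPR15+ samples, so that the GPR15+ array numbered 1 was the low one, and without it the difference was 0.10. Rpl7l1, a factor of large-subunit assembly, differed by -0.41, 0.61 and 0.56, and its partner Rpl7 by -0.39, 0.17 and 0.12. Rpl32l read 9.41, 9.35 and 9.18 in GPR15- and 9.51, 9.46 and 9.63 in GPR15+ samples. Its fractions did not overlap, with a difference of 0.22 ± 0.16 (SE; limma adjusted p = 0.799), while its partner Rpl32 differed by -0.18, 0.14 and 0.33.

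The paralogues known from other tissues had mean signals of 7.83 (Rpl10l), 6.54 (Rpl3l) and 5.56 (Rpl39l) log2 units. Rpl10l read 7.76, 8.13 and 7.95 in GPR15- and 7.63, 7.75 and 7.74 in GPR15+ samples, lower in each number without overlap (-0.24 ± 0.17 SE; limma adjusted p = 0.796). Rpl3l read 6.62, 6.65 and 6.66 in GPR15- and 6.51, 6.46 and 6.35 in GPR15+ samples, also lower without overlap (-0.20 ± 0.15 SE; limma adjusted p = 0.804). Its partner Rpl3 differed by -0.17, 0.12 and 0.13. Rpl39l read 5.24 to 6.03 in GPR15- and 5.29 to 5.84 in GPR15+ samples, below each array's median. Rps4l, which RefSeq lists as a transcribed pseudogene, differed by 0.03, -0.28 and -0.06, unlike Rps4x. Free of overlap on the lower side were thus 2 of 8 paralogues, against 9.17% of all genes. The median of all genes also lay below 0 in each number (-0.03, -0.08 and -0.06), and how much of these signals is background is not known.

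**Figure D4:**
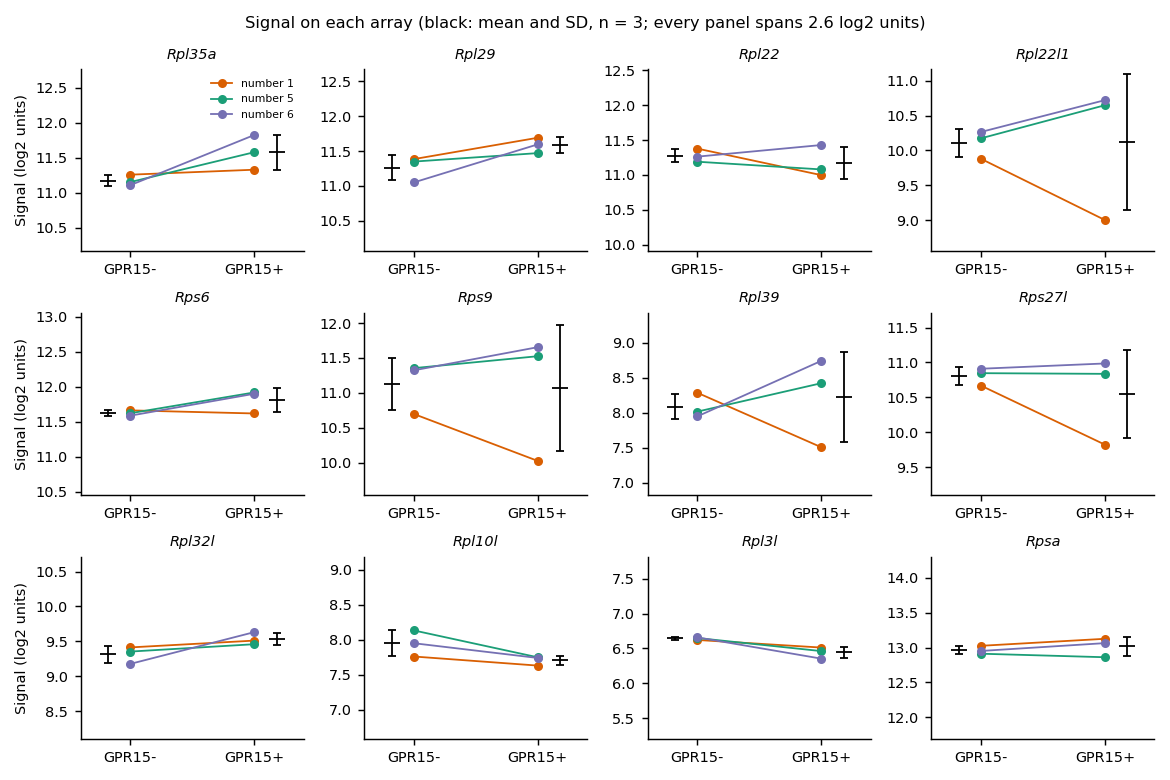
Signal (log2 units, y axis) of 12 genes on each array, with lines joining the GPR15- and GPR15+ arrays of equal title number and black marks for the mean and SD of 3 arrays. Rpl35a and Rpl29 are higher in GPR15+ and Rpl10l and Rpl3l lower in all 3 numbers, whereas Rpl22l1, Rps9, Rpl39 and Rps27l are lower by 0.67 to 0.88 in number 1.

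Other genes of the pathway were described from lists. Beside their counts above 0 stand 40.8% of all genes and 57.5% of the other bright genes above 0 in the mean difference. Of ribosomal protein genes that the symbol rule misses, 3 were listed and measured: Rpl36al (0.24), Fau (0.10) and Rps27rt (0.02). All 3 lay above 0, with medians of -0.38, 0.14 and 0.50 in numbers 1, 5 and 6. Rpl37rt, which the rule also misses and the list left out, lay at -0.02, with -0.40, 0.18 and 0.15 by number. Of 15 measured translation factors and others with TOP messages, 10 lay above 0 and 5 below with 0 called by limma, and the median was 0.13 log2 units, at -0.09, 0.19 and 0.24 in numbers 1, 5 and 6. The initiation factor Eif4b (0.53 ± 0.21 SE) and the elongation factor Eef2 (0.40 ± 0.19 SE) had the highest values, and Eef1b2 (-0.20) and the poly(A)-binding protein Pabpc1 (-0.13) the lowest. Eif4b was higher in each number, by 0.41, 1.02 and 0.16. Of 31 ribosome assembly genes 16 lay above 0 and 15 below, 0 were called, and the median was 0.00, at -0.21, -0.02 and 0.18 by number. The helicase Ddx21 (0.54 ± 0.29 SE) and the processome gene Utp20 (0.37) lay highest, and Tsr1 (-0.56 ± 0.18 SE), a factor of small-subunit maturation, and Rrs1 (-0.49 ± 0.16 SE), of large-subunit maturation, lowest. Tsr1 was lower in each number, by -0.51, -0.68 and -0.48, and Rrs1 by -0.37, -0.67 and -0.44, and neither passed (limma adjusted p = 0.773 and 0.773).

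RNA polymerase I makes the precursor of ribosomal RNA. Of 14 of its subunits and factors 9 lay above 0 and 5 below, 0 were called by limma, and the median was 0.05, at 0.08, -0.00 and 0.02 by number. Polr1c, a subunit shared with RNA polymerase III, was highest at 0.52 ± 0.25 (SE), followed by Polr1e at 0.41. The largest subunit Polr1a was lowest at -0.74 ± 0.35 (SE), after Cd3eap at -0.39. Of 13 genes of the mTORC1 and S6 kinase route 10 lay above 0 and 3 below, 0 were called, and the median was 0.12, at -0.12, 0.57 and 0.19 by number. The list holds both drivers of the route and brakes on it, so these counts give no direction for its activity. The mTORC1 brake Tsc1 lay highest at 0.81 ± 0.24 (SE; limma adjusted p = 0.773) and the cap-binding Eif4e at 0.72, whereas Myc, a driver of ribosome production, lay at -0.55 and Rps6kb2, which encodes an S6 kinase, at -0.22. The cap-binding regulator of TOP messages, Larp1, differed by 0.05 ± 0.16 (SE).

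Markers of other cell types were set beside these values. For comparison, 40.8% of all genes lay above 0 in the mean difference. Of the epithelial list 3 of 15 measured members lay above 0, with medians of -0.17, -0.33 and -0.33 log2 units in numbers 1, 5 and 6, and their summed linear signal ran from 1485 to 1715 in GPR15- and from 1177 to 1617 in GPR15+ samples. Of the dendritic cell list 1 of 7 lay above 0 (medians -0.04, -0.36 and -0.45; summed signal 674 to 738 and 543 to 706). Of the macrophage and granulocyte list 2 of 10 did (medians -0.03, -0.22 and -0.21; summed signal 624 to 843 and 683 to 1067), and of the B and plasma cell list 4 of 9 (medians 0.06, -0.08 and -0.31; summed signal 1292 to 2168 and 1299 to 2499). In the latter, Xbp1 was the brightest gene on every array (9.33 to 10.97 log2 units) and so weighs most in the sum. The stromal list had 2 of 9 above 0 (summed signal 1064 to 1234 and 1119 to 1205) and the CD8 and NK cell list 3 of 8 (medians -0.20, -0.13 and -0.05; summed signal 902 to 965 and 617 to 850, which do not overlap). In that list the cytotoxic protease gene Gzma was lowest, by -2.04, -1.24 and -0.93 in numbers 1, 5 and 6. Gzma was also its brightest gene on the GPR15- arrays (8.29, 8.38 and 8.74 log2 units), so it weighs most in that sum. Of the 8 genes 1 was free of overlap on the lower side (Gzma) and 1 on the higher side (Prf1), against 9.17% and 4.12% of all genes. On the lower side so were 2 of 15 epithelial, 2 of 9 B and plasma cell, 1 of 10 macrophage, 1 of 9 stromal and 0 of 7 dendritic genes. On the higher side 0 were in each of these lists. The T cell list had 2 of 9 on the higher and 1 on the lower side, and the Treg list 1 of 8 on the lower. In the macrophage list Cybb, a subunit of the phagocyte oxidase, was highest, at 1.58, 1.86 and 0.08, against the list's median. Neither Gzma nor Cybb passed (limma adjusted p = 0.773 and 0.773). No array value is 0 on this scale. Of the lists for the sorted cells, the T cell list had 7 of 9 above 0 (median 0.18) and the Treg list 3 of 8 (median -0.05). By their medians the epithelial, dendritic, macrophage, stromal, B and plasma cell and CD8 and NK cell lists lay below 0 in numbers 5 and 6. There the core ribosomal genes lay higher, but the median of all genes also lay below 0 (-0.08 and -0.06). The B and plasma cell list in number 5 and the CD8 and NK cell list in number 6 were no lower than that. The part of these lists in the result was not tested.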

How the data were processed

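The authors deposited log2 values per probe set for 6 arrays, made with RMA per the submitters' processing notes, and the software version and genome build are not given in the sources used here. Per the labels, RNA was labelled with biotin by an Affymetrix kit for small amounts. Of 22142 rows 19527 had 1 gene symbol, 0 several and 2615 none, and the brightest row was kept for the 33 genes with more than 1, which left 19494 genes. Differences are labelled GPR15+ minus GPR15-, and were fitted by lmFit and eBayes of limma 3.58.1 (R 4.3.3), without a block and with Benjamini-Hochberg adjustment, and the fit was tested on simulated data. Means and SDs are over 3 arrays, SEs and 95% intervals are limma's. Whether arrays stem from separate animals is not stated, so p-values reflect no more than how these samples vary, which may be technical variation.

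Members, gene lists and alternatives were chosen with earlier results of these data known, and the pyrimidine search with sequences in view. The rule named the 5 highest and 5 lowest core genes of each subunit, those without overlap, all paralogues with their partners, a few fixed genes, and the 2 highest and 2 lowest of each related list. Rpl4, Rpl5, Rpl8, Rpl11, Rpl17, Rpl36a, Rps14, Rps28, Larp1 and the markers were named outside it, for their role or after their values were seen. All 63 members were matched to the reference table by gene identifier. Deviations from the group means correlated at 0.567, 0.381 and 0.319 between arrays numbered 1, 5 and 6, so numbers were taken to pair arrays, as a hint from the data. GPR15- 6 with GPR15+ 5 reached 0.315, so 5 and 6 are hardly told apart.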

Additional observations from a re-analysis of the deposited data

How the results depend on the processing

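With 3 arrays per fraction, core genes had 95% intervals of about 0.45 log2 units to either side, and no probe-level signal over background was at hand. The replicate block left 0 members called and 0 under an unadjusted p of 0.05, and changed no call of the named genes, while over all genes limma gave 2411 at that p with the block, 1214 without, and 4101 without both arrays numbered 1. Quantile normalization and the removed trend also left 0 called. With array weights, whose estimation did not converge (0.191 for the GPR15+ array numbered 1, 6.56 for that numbered 6), limma called 2174 genes and 3 members, Rpl21 (0.58), Rpl35a (0.64) and Rpl39 (0.66), with 28.6% of members (18) and 33.5% of all genes under an unadjusted p of 0.05, and a small-subunit median of 0.27. Members under that p numbered 2 (3.17%, all genes 6.02%) with arrays centred on their medians and 5 (7.94%, all genes 21.0%) without both arrays numbered 1. When 1 array was left out they numbered 0 to 6, with 6 (9.52%, all genes 22.3%) without the GPR15+ array numbered 1, so the members' share stayed below that of all genes in each of these settings. Leaving out 1 array gave medians of -0.058 to 0.25 (large), 0.00 to 0.25 (small) and -0.18 to 0.06 (paralogues), with 0 called throughout.

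Signs turned as follows, and the cause was not tested. Centring arrays on their medians turned Rpl7 (0.035), Rplp1 (0.068), Rps21 (0.065) and Rps9 (0.013). Quantile normalization turned Rpl22l1 (-0.073), Rpl3 (-0.012), Rpl39 (-0.00034), Rplp1 (0.023) and Rps15a (-0.024). The removed trend turned Rpl22l1 (-0.055), Rpl3 (-0.0098) and Rps15a (-0.047). Array weights turned Rpl22 (0.13), Rpl23 (0.32), Rpl36 (0.065), Rpl7 (0.18), Rpl9 (0.37), Rplp1 (0.24), Rps21 (0.20), Rps27l (0.0903) and Rps9 (0.36). Without both arrays numbered 1 the same 9 genes turned: Rpl22 (0.028), Rpl23 (0.26), Rpl36 (0.016), Rpl7 (0.14), Rpl9 (0.26), Rplp1 (0.19), Rps21 (0.15), Rps27l (0.033) and Rps9 (0.25). Leaving out 1 array turned 20 of the named genes: Rpl15 (-0.077 to 0.47), Rpl22l1 (-0.28 to 0.58), Rpl23 (-0.32 to 0.31), Rpl3 (-0.12 to 0.27), Rpl32 (-0.015 to 0.22), Rpl36 (-0.20 to 0.11), Rpl39 (-0.12 to 0.50), Rpl39l (-0.11 to 0.29), Rpl7 (-0.20 to 0.28), Rpl7l1 (-0.21 to 0.76), Rpl9 (-0.38 to 0.41), Rplp1 (-0.14 to 0.18), Rps15a (-0.15 to 0.26), Rps18 (-0.034 to 0.096), Rps21 (-0.14 to 0.21), Rps27l (-0.48 to 0.10), Rps29 (-0.11 to 0.22), Rps4x (-0.20 to 0.58), Rps9 (-0.35 to 0.46) and Rpsa (-0.00028 to 0.13).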
